A study of Rattus norvegicus with 6 samples.

Results

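Glutathione is the most abundant thiol of the hepatocyte, and the transcripts described here encode enzymes and carriers that make it, use it and break it down. The 10 genes were Ggt1, Gclc, Gclm, Gss, Gsr, Anpep, Slc7a11, Oplah, Chac1 and Gpx1, out of 14217 genes that had a probe set of their own. They were represented by every probe set whose platform annotation named them alone, 11 in all, with 2 for Gclc and 1 for each other gene. Ggt1 was chosen by its measured log2 difference between the groups compared here, and the other genes were picked for their function with the results of that comparison known. The comparison of treated with control livers is therefore a description for these 10 genes, and no p-value is given for any of them.

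The samples were livers of male BrlHan:WIST@Jcl(GALAS) rats, 3 on control diet and 3 given epsilon-momfluorothrin, a pyrethroid insecticide, in the diet for 2 weeks. The animals came at 4 weeks of age, had 1 week of quarantine and were 7 weeks old at sampling, and each gave 1 Affymetrix array. Titles and the treatment protocol state a dose of 3000 ppm, while characteristics, source names and descriptions state 5000 ppm, so the dose is not settled and the treated group is called momfluorothrin. All animals ate powdered diet and no other agent or genetic change is named for either group. Values are MAS5 signals, linear intensities of a probe set in arbitrary units. Every array had a trimmed mean of 100, and array medians ranged from 27.0 to 29.4 in control and from 23.1 to 26.5 in momfluorothrin livers. Because a signal also reflects how well its probes bind, signals of different genes are not ranked against each other, and sums over marker genes serve only to compare arrays.

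Glutathione is built in the cytosol in a pair of steps. Glutamate cysteine ligase, a catalytic subunit (Gclc) with a modifier subunit (Gclm), joins glutamate to cysteine and limits the rate, and glutathione synthetase (Gss) adds glycine. Exported glutathione is cleaved outside the cell by gamma-glutamyltransferase (Ggt1) and aminopeptidases such as Anpep, which return its amino acids. In adult rat liver Ggt1 protein is found mainly on bile duct cells and is low in hepatocytes. Gclc, Gclm, Gsr and Slc7a11 are textbook targets of the transcription factor NRF2 (Nfe2l2), and Chac1 and Slc7a11 of ATF4.

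RefSeq promoter windows (GRCr8, 250 bases before to 50 after an annotated start) were found for 8 of the 10 genes. The windows below belong to the tested members with the highest and the lowest log2 difference, Ggt1 and Chac1, and to the next highest, Gclm. They lie at chr20:13095055-13095354 on the minus strand for Ggt1, at chr2:213031885-213032184 on the plus strand for Gclm and at chr3:126795881-126796180 on the plus strand for Chac1. Capitals mark matches, on either strand, to the core of the antioxidant response element bound by NRF2 (TGANNNNGC) or of the amino acid response element bound by ATF4 (TGATGNAA).
Ggt1: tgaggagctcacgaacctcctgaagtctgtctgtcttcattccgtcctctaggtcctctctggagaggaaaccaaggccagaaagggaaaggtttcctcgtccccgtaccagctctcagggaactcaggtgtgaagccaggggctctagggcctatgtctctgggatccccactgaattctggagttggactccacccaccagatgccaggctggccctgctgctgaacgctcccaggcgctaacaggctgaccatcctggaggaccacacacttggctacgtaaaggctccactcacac
Gclm: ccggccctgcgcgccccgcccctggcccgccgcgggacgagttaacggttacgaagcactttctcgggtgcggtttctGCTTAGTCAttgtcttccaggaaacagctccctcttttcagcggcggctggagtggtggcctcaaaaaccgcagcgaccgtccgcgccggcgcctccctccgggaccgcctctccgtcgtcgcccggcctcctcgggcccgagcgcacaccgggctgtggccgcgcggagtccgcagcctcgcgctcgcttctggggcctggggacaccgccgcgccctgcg
Chac1: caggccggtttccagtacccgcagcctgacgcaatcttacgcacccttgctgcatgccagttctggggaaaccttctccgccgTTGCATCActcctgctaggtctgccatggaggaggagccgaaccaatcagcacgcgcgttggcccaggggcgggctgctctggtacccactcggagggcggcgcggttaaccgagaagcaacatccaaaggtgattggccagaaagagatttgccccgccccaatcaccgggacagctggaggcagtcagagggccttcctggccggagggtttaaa
The Gclm window held 1 antioxidant core, TGACTAAGC, read on the strand opposite to the printed one, where the leftmost printed base lies at position -172 from the start. The Chac1 window held 1 amino acid core, TGATGCAA, also on the opposite strand, with its leftmost printed base at position -167. No letters in the Ggt1 window matched either core, and Ggt1 is known to be transcribed from several alternative starts, of which the window covers 1. Among the 8 windows, 3 held the antioxidant core (Gclm, Slc7a11 and Gpx1) and 1 the amino acid core. Of all 33469 promoter windows of 300 bases, 40.5% held the antioxidant core and 3.98% the amino acid core. A match is a description of these letters only.

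Ggt1 carried the largest difference of the 10 genes. The control arrays, replicates 1 to 3 in that order here and below, gave signals of 33.5, 52.2 and 33.4, and the momfluorothrin arrays gave 143.7, 232.5 and 164.5. All 3 treated arrays lay above all 3 control arrays, and the lowest treated value was well over the highest control value. The group means were 39.7 ± 10.8 and 180.3 ± 46.4 (SD, n = 3 each), a log2 difference of 2.19 ± 0.23 (SE), or 4.55-fold. A probe set was tested if at least 3 arrays put it above their median signal, and this difference ranked 11 from the top among the 15778 tested. The control signals were near the middle of their arrays, at 1.14 to 1.83 times the array median, whereas the treated signals were at 5.55 to 8.78 times. Adding 16 to every signal before taking logs, which damps differences at low signals, gave 1.81. Since these are bulk livers, more cells with the transcript and more transcript per cell cannot be told apart.

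In the limma fit over all probe sets Ggt1 was the only 1 of the 10 tested member probe sets past an adjusted p of 0.05 (Benjamini-Hochberg), where 0.171% of all probe sets passed and 0.133% passed upward. That contrast chose Ggt1, so nothing is read from the count. Ggt1 did not pass without momfluorothrin replicate 2, the array with its highest signal, where its log2 difference was 1.99. It also did not pass without momfluorothrin replicate 3 (log2 difference 2.24) or in a fit with no intensity trend.

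**Figure D1:**
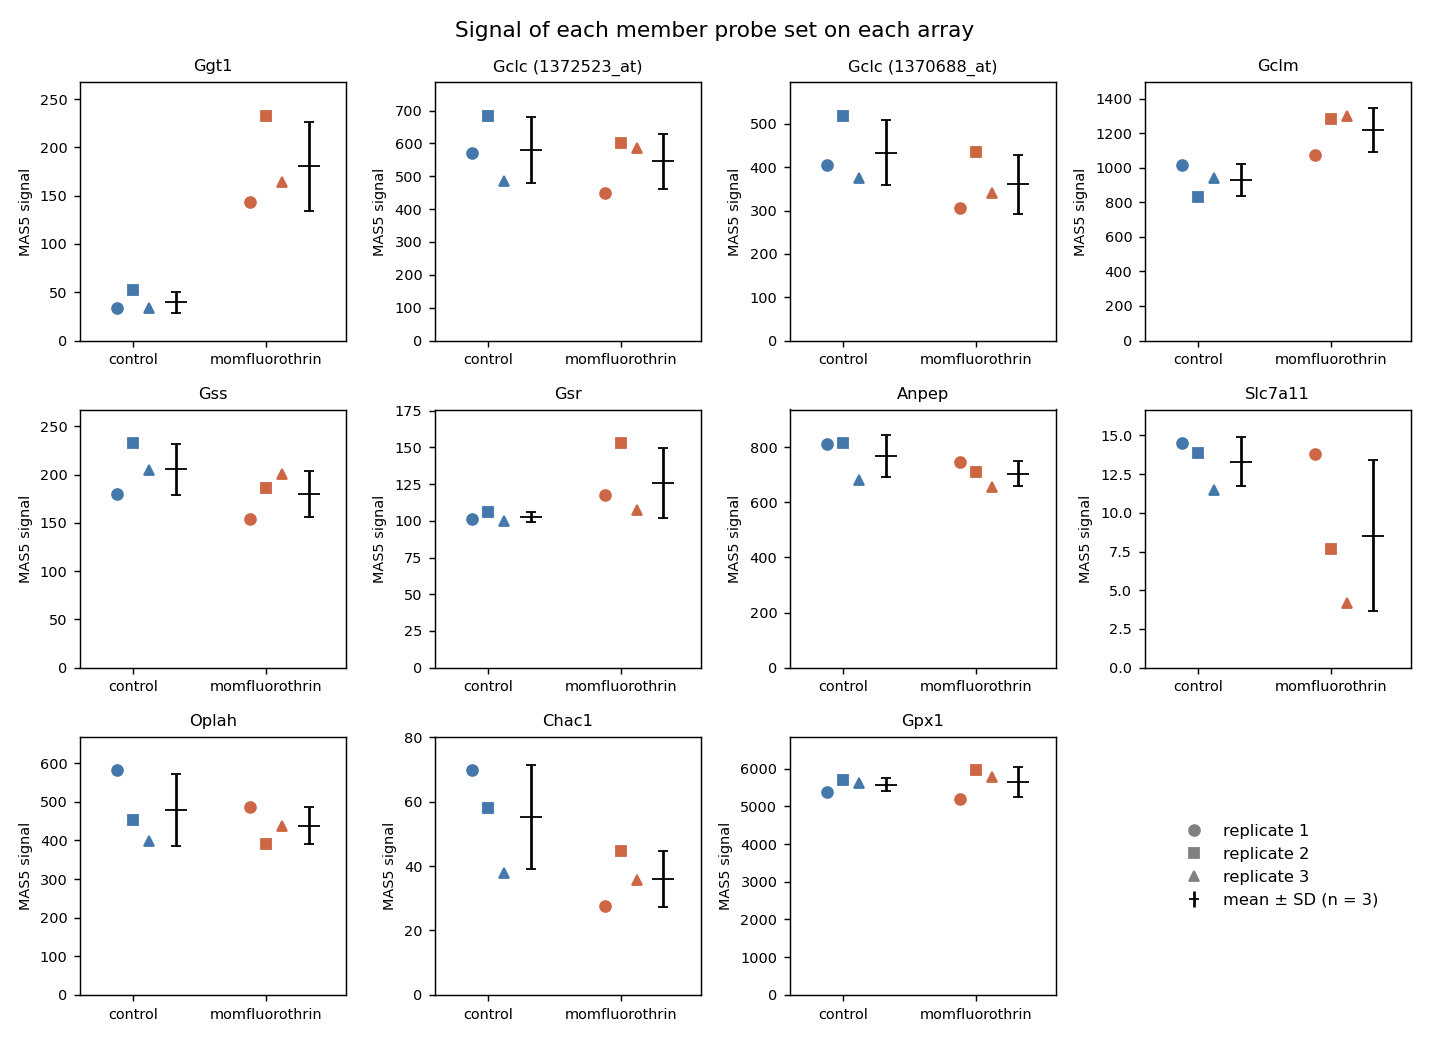
MAS5 signal (arbitrary units, axes from 0) of the 11 member probe sets on each of the 6 arrays, with circles, squares and triangles for replicates 1 to 3 and the mean ± SD (n = 3) beside them. Ggt1 goes from 33.4 to 52.2 in control to 143.7 to 232.5 in momfluorothrin livers, and apart from Ggt1 only the Gclm and Gsr groups do not overlap.

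Of the subunits of the rate-limiting ligase, Gclm was higher on every treated array, whereas the groups overlapped for Gclc. Gclm, the modifier subunit that raises the ligase's affinity for glutamate, measured 1015, 831.2 and 939.5 in control livers and 1072, 1285 and 1300.2 in momfluorothrin livers. The groups did not overlap, but treated replicate 1 lay close to control replicate 1. The log2 difference was 0.39 ± 0.11 (SE, n = 3), or 1.31-fold, and 95.1% of all probe sets tested had a lower difference. Gclc, the catalytic subunit, was measured by 2 probe sets. On probe set 1372523_at its signals were 570.1, 683.4 and 485.2 in control and 447.7, 601.2 and 586.5 in momfluorothrin livers, a log2 difference of -0.09 ± 0.15. On probe set 1370688_at they were 404.7, 518.3 and 376.3 in control and 305.2, 436.3 and 340.0 in momfluorothrin livers, a log2 difference of -0.27 ± 0.16. The groups overlapped on both, and both put control replicate 2 highest and treated replicate 1 lowest. The sign of the first was not stable, since it was 0.09 with median centring and also above 0 without control replicate 2 (0.04) or without momfluorothrin replicate 1 (0.05).

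The ratio of Gclm to Gclc within an array does not depend on how that array was scaled. Relative to the control mean, log2 of Gclm over Gclc (1370688_at) was 0.22, -0.43 and 0.21 in control and 0.70, 0.45 and 0.83 in momfluorothrin livers. With the other Gclc probe set it was 0.14, -0.41 and 0.26 in control and 0.57, 0.41 and 0.46 in momfluorothrin livers. Every treated array was above every control array in both, by 0.66 and 0.48 on average, while control replicate 2 stood apart below the other controls. The ratio does not tell which of the subunits' transcripts changed. It combines values given above, for genes chosen with the comparison known, so its separation is no further result.

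Gss, which completes the tripeptide, measured 180.0, 232.7 and 204.6 in control livers and 154.3, 185.7 and 200.9 in momfluorothrin livers. The groups overlapped, with a log2 difference of -0.19 ± 0.14 (SE, n = 3). Log2 of Gclm over Gss was higher on every treated array than on every control array, by 0.58 on average, which is likewise no further result. Slc7a11, the cystine carrier of system xc-, was below the array median on all 6 arrays (signals of 4.18 to 14.5). It is not well above background in either group, so it was not tested and no fold is given.

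Among enzymes that use or recycle glutathione, Gsr, the reductase that regenerates it from its disulfide, measured 101.6, 106.4 and 100.04 in control livers and 117.8, 152.9 and 107.1 in momfluorothrin livers. The treated arrays all lay above the controls, but treated replicate 3 exceeded the highest control only slightly and treated replicate 2 made up most of the difference. The log2 difference was 0.28 ± 0.15 (SE, n = 3), and 0.13 without momfluorothrin replicate 2. Gpx1, the abundant cytosolic glutathione peroxidase, measured 5387, 5707 and 5628 in control livers and 5189, 5956 and 5773 in momfluorothrin livers. The groups overlapped and the log2 difference was 0.01 ± 0.07. It is a selenoprotein whose control signals varied least of the 10 genes, with a coefficient of variation of 2.99%. Relative to the control mean, log2 of Gsr over Gpx1 was 0.03, 0.02 and -0.05 in control livers. In momfluorothrin livers it was 0.30, 0.48 and 0.01. The groups thus overlapped in this ratio, in which the scale of an array cancels.

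Among the member enzymes of glutathione breakdown other than Ggt1, no probe set had groups that did not overlap. Anpep, the membrane aminopeptidase that can cleave cysteinylglycine, measured 811.9, 813.9 and 680.8 in control livers and 744.8, 710.7 and 655.2 in momfluorothrin livers, a log2 difference of -0.13 ± 0.10 (SE, n = 3). Oplah, the 5-oxoprolinase that turns 5-oxoproline back into glutamate, measured 581.8, 453.5 and 399.3 in control livers and 486.7, 389.7 and 438.7 in momfluorothrin livers, a log2 difference of -0.11 ± 0.15. With median centring both differences were above 0, at 0.05 for Anpep and 0.06 for Oplah. The 3 control arrays of Oplah spread more widely than the group means differed.

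Chac1, which cleaves glutathione inside the cell and is raised in amino acid and endoplasmic reticulum stress, had the lowest difference of the tested members. Its signals were 69.7, 58.0 and 38.0 in control and 27.5, 44.8 and 35.7 in momfluorothrin livers. Control replicate 3 lay within the treated range, so the groups overlapped. The log2 difference was -0.60 ± 0.27 (SE, n = 3), and -0.41 to -0.85 when 1 array was left out. All its signals were within 1.06 to 2.58 times the array median.

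Over the 10 tested member probe sets, which stand for 9 genes, the median log2 difference was -0.10, against -0.03 over all probe sets tested. Of these, 4 were above 0 and 6 below. With median centring the tally turned, with 7 above 0 and a median of 0.07, against 0.14 over all probe sets. The groups did not overlap, with treated arrays higher, for 3 of them (Ggt1, Gclm and Gsr), and for none with treated arrays lower, where 7.4% of all probe sets tested did not overlap upward and 10.4% downward. The same 3 did not overlap with quantile normalization (8.51% of all probe sets upward and 8.3% downward), and Gpx1 joined them with median centring (19.5% upward and 2.99% downward). Nothing further is read from these shares, because the comparison was known when the genes were chosen.

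Log2 of Ggt1 over each of the other tested members was higher on every treated array than on every control array. The mean differences ran from 1.79 over Gclm to 2.79 over Chac1. For Ggt1 over Gclm the values were -0.35, 0.58 and -0.24 in control and 1.68, 2.11 and 1.59 in momfluorothrin livers, relative to the control mean. The scale factor of an array cancels in these ratios. Ggt1 was chosen by its difference, and the other tested members differed by a log2 of 0.60 at most. The separation therefore followed from that choice and is no further result.

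**Figure D2:**
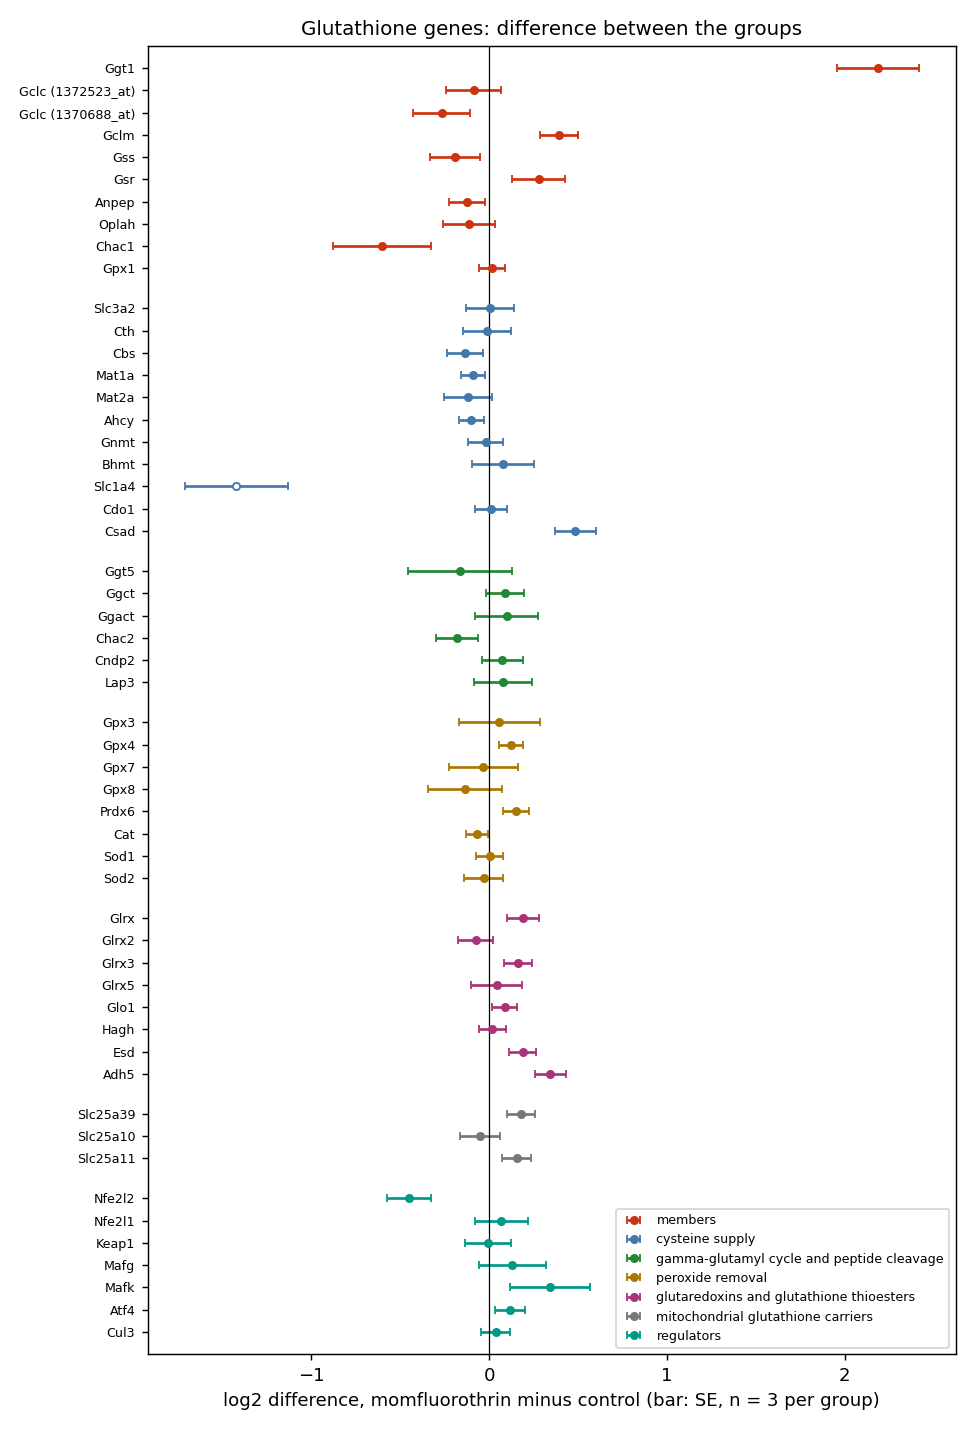
Log2 difference (momfluorothrin minus control, SE as bars, n = 3 per group) of the 10 tested member probe sets and of 43 other tested genes of glutathione and cysteine metabolism, coloured by list. Ggt1 stands at 2.19. The open symbol marks Slc1a4, whose momfluorothrin signals are below the array median, so that its plotted value is no exact difference (control at least 1.55-fold higher on average).

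Other genes of glutathione and cysteine metabolism were tested in the same fit. They were taken by function in 6 lists of 57 genes, with earlier results of these data known. Of these, 52 had a probe set and 43 passed the filter on low signals. No gene rose and none fell at an adjusted p of 0.05 in limma, where 0.217% of all 9200 genes tested passed. At an unadjusted p under 0.05 there were 3 higher and 2 lower, 5 of 43, against 12.2% of all genes. Slc1a4, among the 2 lower, met the filter through its control arrays alone. The median log2 difference was 0.04 over the 43 genes and -0.01 over all genes. Because earlier results were known, the counts and p-values of these lists are read as a description.

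In the list of cysteine supply, the 2 genes of smallest p went in opposite directions. Slc1a4, a carrier of neutral amino acids including cysteine, measured 42.1, 33.3 and 42.2 in control livers and 13.4, 12.8 and 18.1 in momfluorothrin livers. The groups did not overlap, but no treated array exceeded its median. Set against the treated medians, control signals were 1.55-fold higher on average, a lower bound for the group means and not for single arrays. The measured log2 difference of -1.42 ± 0.29 (SE, n = 3) did not pass in limma. Because Slc1a4 met the filter through its control arrays alone, no p-value is given and nothing is read from that test. Csad, which turns cysteine sulfinate towards taurine, measured 571.4, 431.1 and 461.6 in control livers and 637.7, 702.7 and 694.2 in momfluorothrin livers, a mean gap of 0.48 ± 0.12 on the log2 scale (SE, limma adjusted p = 0.194). The other tested members of this list, which include Cth and Cbs of transsulfuration, had differences of -0.14 to 0.08, and the median over its 11 tested genes was -0.02.

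In the list of gamma-glutamyl enzymes and peptidases, none of the 6 tested genes passed and all groups overlapped. Chac2, the constitutive relative of Chac1, was at -0.18 ± 0.12 and Ggct, which releases 5-oxoproline, at 0.09 ± 0.11 (SE, n = 3, adjusted p = 0.588 and 0.788 in limma). Ggt5, the relative of Ggt1 that also cleaves leukotriene C4, measured 25.05, 32.7 and 43.0 in control livers and 38.5, 23.5 and 27.6 in momfluorothrin livers. Its difference of -0.16 ± 0.29 is given after its value was seen.

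For peroxide removal, none of 8 tested genes passed, with Prdx6 at 0.15 ± 0.07 and the lipid hydroperoxidase Gpx4 at 0.12 ± 0.07 (SE, n = 3, adjusted p = 0.472 and 0.525 in limma). Glutaredoxins and enzymes of glutathione thioesters gave no call either. In that list the treated arrays were all higher for 5 of 8 genes and all lower for none. Of all 9200 genes, 832 did not overlap upward (9.04%) and 849 downward. The median log2 difference of the list was 0.12. The 5 became 3 with quantile normalization, where 888 of the 9200 did not overlap upward. They stayed 5 with median centring, where 2119 of the 9200 did not. Adh5, the S-nitrosoglutathione reductase, measured 999.1, 987.0 and 900.4 in control livers and 1125, 1236 and 1305 in momfluorothrin livers, a log2 difference of 0.34 ± 0.09 (adjusted p = 0.218 in limma). Esd, which hydrolyses S-formylglutathione, was at 0.19 ± 0.08 (SE, adjusted p = 0.407 in limma). The mitochondrial carriers Slc25a39 and Slc25a11 were at 0.18 ± 0.08 and 0.16 ± 0.08 (adjusted p = 0.437 and 0.506 in limma).

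None of 7 tested regulators passed. Nfe2l2, which encodes NRF2, measured 744.7, 671.1 and 756.9 in control livers and 635.8, 510.6 and 456.6 in momfluorothrin livers. All treated arrays were lower, with a mean difference of -0.45 ± 0.13 on the log2 scale (SE, n = 3, limma adjusted p = 0.248). With median centring the Nfe2l2 groups overlapped. Mafk, a small partner protein of NRF2, was at 0.34 ± 0.22 (adjusted p = 0.590 in limma), with overlapping groups. Transcript level is a limited measure of NRF2, which is known to be controlled mainly through the stability of the protein.

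The genes whose log2 signal followed Ggt1 most closely over the 6 arrays were App, Col6a3, Lonp1, Pkdcc and Cdca7, with Pearson's r of 0.99 for each. The 6 points share the difference between the groups, and r is given only as a description. The 5 were picked for following Ggt1, which was chosen by its difference, so their own differences follow from that choice. None of the 5 passed the threshold in limma, and nothing is read from that. App measured 214.4, 226.2 and 212 in control livers and 313, 355.5 and 318 in momfluorothrin livers, a mean gap of 0.59 ± 0.10 on the log2 scale (SE). The differences of Col6a3, Lonp1 and Pkdcc were 0.21 to 0.35. Cdca7 was below the array median on every control array and met the filter through its momfluorothrin arrays alone. Set against those medians, its momfluorothrin signals were 1.22-fold higher on average, a lower bound for the group means and not for single arrays.

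Markers of the cells that a piece of liver holds were set beside Ggt1. Hepatocyte markers were above the array median on every array for all 5 genes tested, with a summed signal of 42129 to 48182 in control and 37767 to 42152 in momfluorothrin livers. Cholangiocyte markers, fixed as 12 genes, had 10 on the array, of which 4 were tested and none passed in limma. Krt7, Spp1, Cftr, Cldn4 and Sctr were below the array median on every array, and none of the 10 was at 0. Epcam measured 67.1, 83.1 and 95.1 in control livers and 137.6, 107.2 and 134.0 in momfluorothrin livers, a mean gap of 0.63 ± 0.16 on the log2 scale (SE, n = 3, limma adjusted p = 0.220). Aqp1 went the other way, at 93.4, 82.2 and 78.8 in control and 71.1, 49.4 and 42.1 in momfluorothrin livers (log2 difference -0.68 ± 0.20, adjusted p = 0.272 in limma). With median centring the Aqp1 groups overlapped. The groups overlapped for Prom1 (0.09 ± 0.24) and Onecut1 (-0.85 ± 0.38). Krt19, not tested, measured 19.7, 21.5 and 15.3 in control and 28.8, 34.8 and 13.6 in momfluorothrin livers. Its groups overlapped, and it exceeded the median on 2 treated arrays and on no control array. The summed signal of the 10 was 600.4 to 902.6 in control and 393.5 to 696.2 in momfluorothrin livers. Without Onecut1, which hepatocytes also express, it was 231.6 to 259.3 and 241.7 to 291.6. Onecut1 had a mean signal of 503 in control and 297 in momfluorothrin livers. Leaving it out departed from the fixed list, with the values known. The part of bile duct cells in the Ggt1 difference was not tested.

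**Figure D3:**
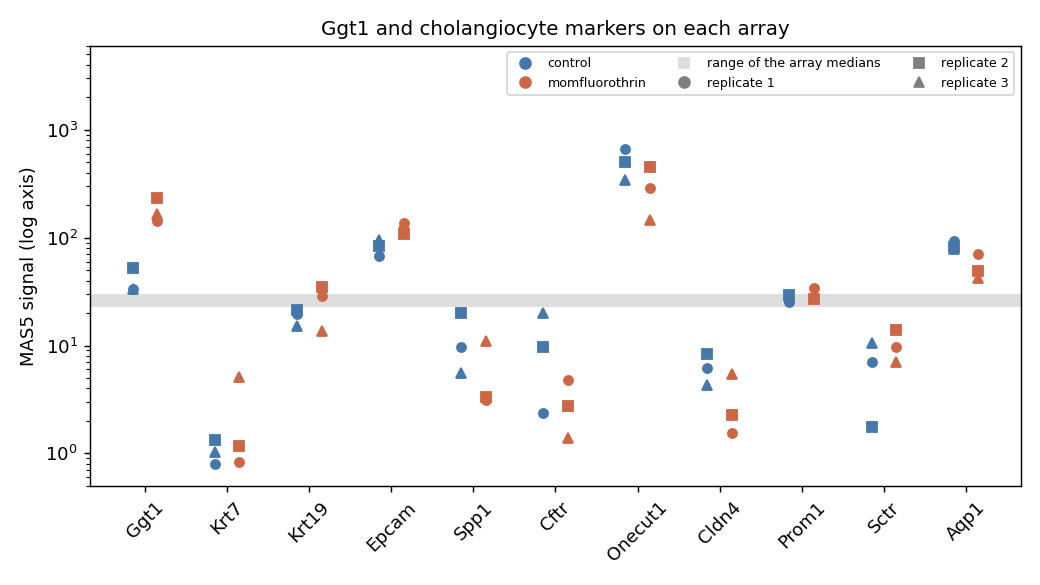
MAS5 signal (log axis) of Ggt1 and of the 10 cholangiocyte markers on the array, with control and momfluorothrin arrays side by side, replicates 1 to 3 as circles, squares and triangles, and the range of the array medians shaded. Epcam is higher on every momfluorothrin array and Aqp1 lower, while Krt7, Spp1, Cftr, Cldn4 and Sctr lie below the medians.

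No marker of the other cell types passed in limma. Of the listed genes on the array, 5 of 5 Kupffer cell, 1 of 4 neutrophil and lymphocyte, 5 of 6 stellate cell and 6 of 6 endothelial markers were tested. Kupffer markers had a median log2 difference of -0.03 (Clec4f -0.33 ± 0.13, Csf1r -0.22 ± 0.12). Cd68 went the other way, at 0.24 ± 0.14, with Cd163 at -0.0045 and C1qa at -0.03. The summed Kupffer signal was 1144 to 1462 in control and 1104 to 1342 in momfluorothrin livers. Stellate markers had a median of -0.09 (Col1a1 -0.27 ± 0.17, Dcn 0.27 ± 0.23) and summed signals of 1729 to 2241 and 1906 to 2043. Endothelial markers had 0.00 (Eng -0.45 ± 0.12, Lyve1 0.31 ± 0.14) and summed signals of 1796 to 2068 and 2029 to 2157. Ptprc, the pan-leukocyte gene, was at -0.04 ± 0.15, and the neutrophil and lymphocyte sum was 97.1 to 109.2 in control and 94.9 to 112.2 in momfluorothrin livers. Hepatocyte markers had a median of -0.15, with Serpina1 at -0.22 ± 0.07 and Cps1 at -0.20 ± 0.07 (SE, adjusted p = 0.304 and 0.338 in limma). The medians of these lists depended on scaling: with median centring they were 0.02 for hepatocyte, 0.14 for Kupffer, 0.08 for stellate and 0.18 for endothelial markers, against 0.16 over all genes, and the hepatocyte median was -0.04 with quantile normalization.

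The choice of array scaling could turn the sign of the smallest differences. Centring each array on its median raised the median log2 difference over kept probe sets by 0.17, and the share of those probe sets above 0 went from 43.7% to 72.8%. The difference of Ggt1 became 2.36, that of Gclm 0.56 and that of Gsr 0.45, and that of Gss -0.02. Over 14 alternatives Ggt1 ranged from 1.81 to 2.40, Gclm from 0.31 to 0.56 and Gsr from 0.13 to 0.45. Chac1 ranged from -0.85 to -0.41 and Gss from -0.28 to -0.02, and Gclc on 1370688_at from -0.41 to -0.09. The sign of Gpx1, Anpep, Oplah and Gclc on 1372523_at changed in 3, 1, 2 and 3 of the 14 alternatives. These 14 include the filter changes, the fit without an intensity trend and the replicate block, which leave each difference as it is.

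**Figure D4:**
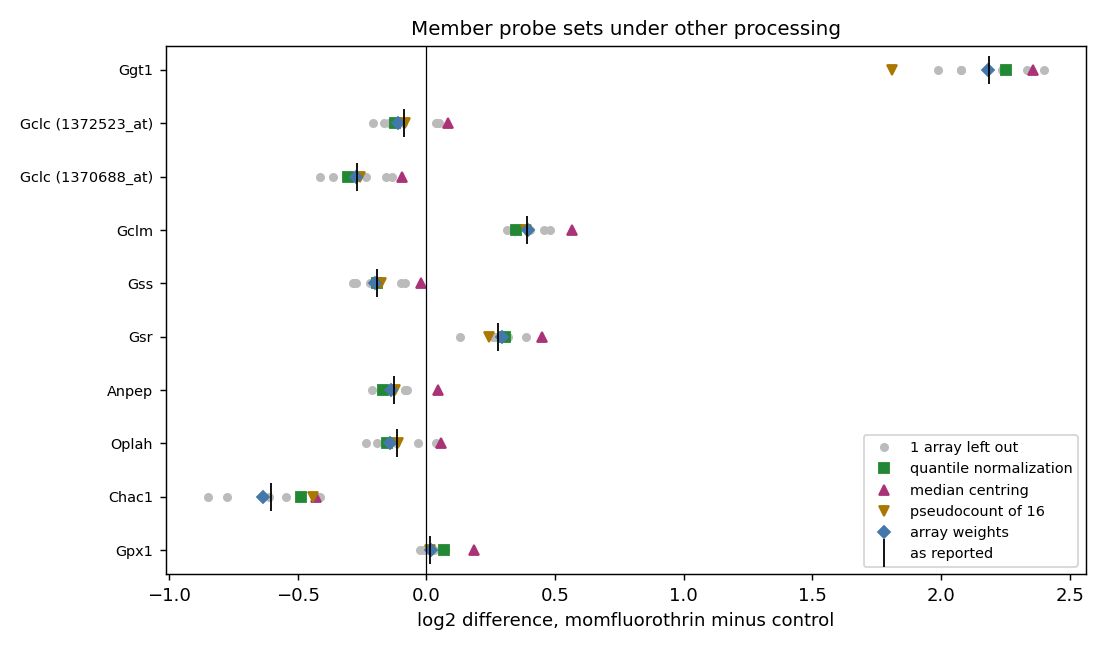
Log2 difference (momfluorothrin minus control) of each tested member probe set as reported and under quantile normalization, median centring, a pseudocount of 16, array weights and with 1 array left out; settings that leave the difference itself as it is are not drawn. Ggt1 stays between 1.81 and 2.40, whereas Gclc on 1372523_at, Anpep, Oplah and Gpx1 lie on both sides of 0.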

How the data were processed

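Liver RNA of 6 rats was measured on 1 array per animal. The deposited values are linear intensities (signals) made by the authors with MAS5, per the submitters' processing notes, with version and settings not stated there. Equal trimmed means (2% left out at each end) show that arrays were already scaled, so no further scaling was applied. Control probe sets (57 of 31099) were left out. Probe sets whose signal passed the median of its array on 3 or more arrays were kept (15778). Gene symbols were those of GEO's platform annotation; 436 probe sets with several symbols named no gene. Listed genes were represented by their brightest kept probe set.

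Log2 signals without a pseudocount were compared with limma 3.58.1 in R 4.3.3 (intensity trend, 2-sided, Benjamini-Hochberg over all kept probe sets, threshold 0.05). SE are limma's moderated errors. Genes named were all members, the 2 genes of smallest p in a list with no call, and the 5 genes most correlated with Ggt1, predicted loci left out. Further Kupffer and cholangiocyte markers were given beyond that rule. Members and lists were chosen with earlier results of these data known. On simulated arrays of this comparison (15778 probe sets, 200 of them changed) the fit recovered 14% of changes of log2 0.5, 55% of log2 1 and 89.6% of log2 2. Of the calls, 4.74% were false. The simulated noise was normal, with the residual SD of each probe set, and independent between probe sets. These shares hold for that setting and may differ for the real arrays. The number of arrays limits the precision. Alternatives changed the filter, scaling, pseudocount, variance model and replicate block, or left out 1 array.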

Additional observations from a re-analysis of the deposited data

How the results depend on the processing

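The log2 difference of Ggt1 was above 0 under all 14 alternatives, and Ggt1 passed the threshold in 11 of them. Nothing is read from that count, because the same contrast chose Ggt1. The number of member probe sets past the threshold was 1 as reported, 0 without an intensity trend and 0 to 1 when 1 array was left out (0 without momfluorothrin replicate 2 or 3). Over all probe sets the count was 27, against 70 with median centring (65 higher and 5 lower, where 21 were higher and 6 lower as reported), 3 without an intensity trend and 15 with the replicate block, and 5 to 28 when 1 array was left out. No pathway gene passed under any of the 14 alternatives. Of 154 member values under the alternatives, 4 moved by more than the spread between replicates, which were Ggt1 with the pseudocount of 16 (1.81) and Gclm, Anpep and Gpx1 with median centring (0.56, 0.05 and 0.19). The filter changes, the fit without an intensity trend and the replicate block leave every log2 difference as it is. Values under those settings are counted in the 154 but could not move or change sign. Median centring adds the same 0.17 to every member by construction, and a pseudocount lowers differences at low signals. Deviations from the group means correlated at -0.10, 0.10 and -0.06 between arrays of replicate number 1, 2 and 3. Between arrays of unlike number the range was -0.07 to 0.145. No pairing by number shows in these values, but so few arrays cannot exclude it. Ggt1 passed with the replicate block. Low signal limits Slc7a11 (below every array median) and Chac1 and control Ggt1 (near it).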

Other observations

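A few relatives of the members failed the filter on low signals and were not tested; they are named after their values were seen. Gpx2, an epithelial glutathione peroxidase, measured 23.4, 10.8 and 7.79 in control livers and 1.67, 53.7 and 61.9 in momfluorothrin livers. It exceeded the array median on 2 treated arrays and on no control array, and treated replicate 1 was the lowest of all 6. Ggt7, a relative of Ggt1, measured 26.0, 28.4 and 31.4 in control livers and 21.8, 10.5 and 15.4 in momfluorothrin livers, and exceeded the median on 1 control array only. Dpep1, a dipeptidase that splits cysteinylglycine, had signals of 12.1 to 32.0 over the 6 arrays, with overlapping groups.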
